A study of Mus musculus with 6 samples.

Results

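The genes described here carry arginine into the cell, convert it to ornithine or remake it from citrulline, and lead ornithine into the polyamines. They were taken by name: Slc7a1, Slc7a2, Arg1, Arg2, Ass1, Asl, Odc1, Srm, Sms and Sat1, each read from array features paired with exactly 1 gene symbol, the brightest per gene. Of these 10 genes, 9 had such a feature, 1 each, among 22180 genes measured. The feature for Sms, spermine synthase, is paired with both Sms and the pseudogene Sms-ps, so Sms was left out. The samples were J774A.1 cells, an established macrophage line from a Balb/c mouse, grown in RPMI-1640 with 10% fetal calf serum to 80% confluence. The 3 NPFF samples received the amidated neuropeptide FF at 1 nM in PBS for 18 h and the 3 control samples, called non-treated in their titles, received PBS alone for 18 h. The titles call each a biological replicate, and nothing says whether these came from separate cultures, so p-values measure only the spread between these samples, which may be technical. All 6 samples are of this 1 tumour-derived line.

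Arginine stands at a branch point in mouse macrophages. Inducible nitric oxide synthase takes it to nitric oxide and citrulline, whereas the arginases split it into urea and ornithine, and high arginase 1 is a customary mark of alternative activation. Ornithine decarboxylase then makes putrescine, which is extended to spermidine and spermine, small polycations that growing cells need, among other things for the hypusine modification of the translation factor eIF5A. Antizymes bind ornithine decarboxylase and lead it to the proteasome, and spermidine/spermine acetyltransferase marks polyamines for breakdown or export.

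Promoter windows of 250 bases upstream of the annotated start were taken from RefSeq (mouse build GRCm38.p6), in which 4 of the 9 measured genes had an entry: Odc1, Slc7a1, Sat1 and Ass1. Those of Odc1 and Slc7a1 are shown because these were the genes whose NPFF and control values did not overlap, and that of Sat1 as a similarly bright gene of the pathway whose values did. Capitals mark the GC box (GGGCGG) and the TATA box (TATAAA) on either strand. The sequences run 5′ to 3′ and end at the base before the start.
Odc1, chr12:17544623-17544872, + strand: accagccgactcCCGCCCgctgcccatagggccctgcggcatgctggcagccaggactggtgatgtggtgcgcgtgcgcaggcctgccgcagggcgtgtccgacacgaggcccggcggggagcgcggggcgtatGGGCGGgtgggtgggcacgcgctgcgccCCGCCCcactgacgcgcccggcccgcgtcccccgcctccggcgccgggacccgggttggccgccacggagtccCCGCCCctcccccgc
Slc7a1, first start, chr5:148399905-148400154, - strand: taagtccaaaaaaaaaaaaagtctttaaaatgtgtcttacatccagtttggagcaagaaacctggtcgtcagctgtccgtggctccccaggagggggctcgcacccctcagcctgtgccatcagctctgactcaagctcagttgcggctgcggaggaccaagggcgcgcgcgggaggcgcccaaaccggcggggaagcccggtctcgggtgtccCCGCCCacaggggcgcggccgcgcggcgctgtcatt
Slc7a1, other start, chr5:148392816-148393065, - strand: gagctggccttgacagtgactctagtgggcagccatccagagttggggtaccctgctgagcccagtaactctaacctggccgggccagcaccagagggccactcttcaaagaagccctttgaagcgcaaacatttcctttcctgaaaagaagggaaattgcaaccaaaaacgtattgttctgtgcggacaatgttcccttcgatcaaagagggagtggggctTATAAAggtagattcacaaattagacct
Sat1, chrX:155216450-155216699, - strand: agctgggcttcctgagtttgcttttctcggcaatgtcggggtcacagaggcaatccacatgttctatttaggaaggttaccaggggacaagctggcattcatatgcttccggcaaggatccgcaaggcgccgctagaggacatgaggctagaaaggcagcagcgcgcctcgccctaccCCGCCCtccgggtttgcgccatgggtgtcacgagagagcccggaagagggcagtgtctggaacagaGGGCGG
Odc1 had 4 GC boxes, starting 238, 116, 88 and 15 bases upstream of the start, Sat1 had 2, and the first Slc7a1 start had 1, at 36 bases. The other Slc7a1 start had no GC box and 1 TATA box, at 28 bases. Over all 32851 windows of this length in the table, 32.7% held a GC box and 12.4% a TATA box. The E-box CACGTG, present in 6.02% of windows, was found in none of these 4, and the Ass1 window held 1. The cAMP response element TGACGTCA, present in 1.55% of windows, was in none of the windows of the measured genes. The motifs were chosen after the values were seen, and a match is a description of the letters alone.

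None of the 9 genes passed the test. Odc1, ornithine decarboxylase, had the greatest difference of the 9, at 0.32 log2 (1.25-fold) above control, followed by the spermidine synthase Srm at 0.18 and the cationic amino acid transporter Slc7a1 at 0.17. The arginases and the other transporter differed by less than 0.1 in either direction. Differences were positive for 6 of the 9 genes, as they were for 51.7% of all genes, and the median was 0.05 against 0.00 over all genes. By limma, a linear model with moderated variances fitted over all genes, 0 of the 9 had an adjusted p under 0.05, and the background was 0% of all genes. At an unadjusted p under 0.05 by limma the count was 0 of 9 as well, against 2.51% of all genes. In 2 genes, Odc1 and Slc7a1, every NPFF array lay above every control array, where 3.67% of all genes did so, and in 0 of the 9 did every NPFF array lie below, against 4.92%. With each array centred on its median in place of quantile normalization, 1 of the 9, Odc1, was higher with no overlap, against 1.65% of all genes. In a limma fit with array weights, 0 of the 9 passed, against 5.08% of all genes. Its weights were 22.6 for control 3, 0.382 for control 2 and 0.0773 for control 1, so its control arm was nearly 1 array. All values are quantile-normalized log2 intensities, and differences are NPFF minus control. SD is over the 3 arrays of a group and SE is that of the limma fit. The adjusted p of each of the 9 genes was 0.9996 by limma.

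**Figure D1:**
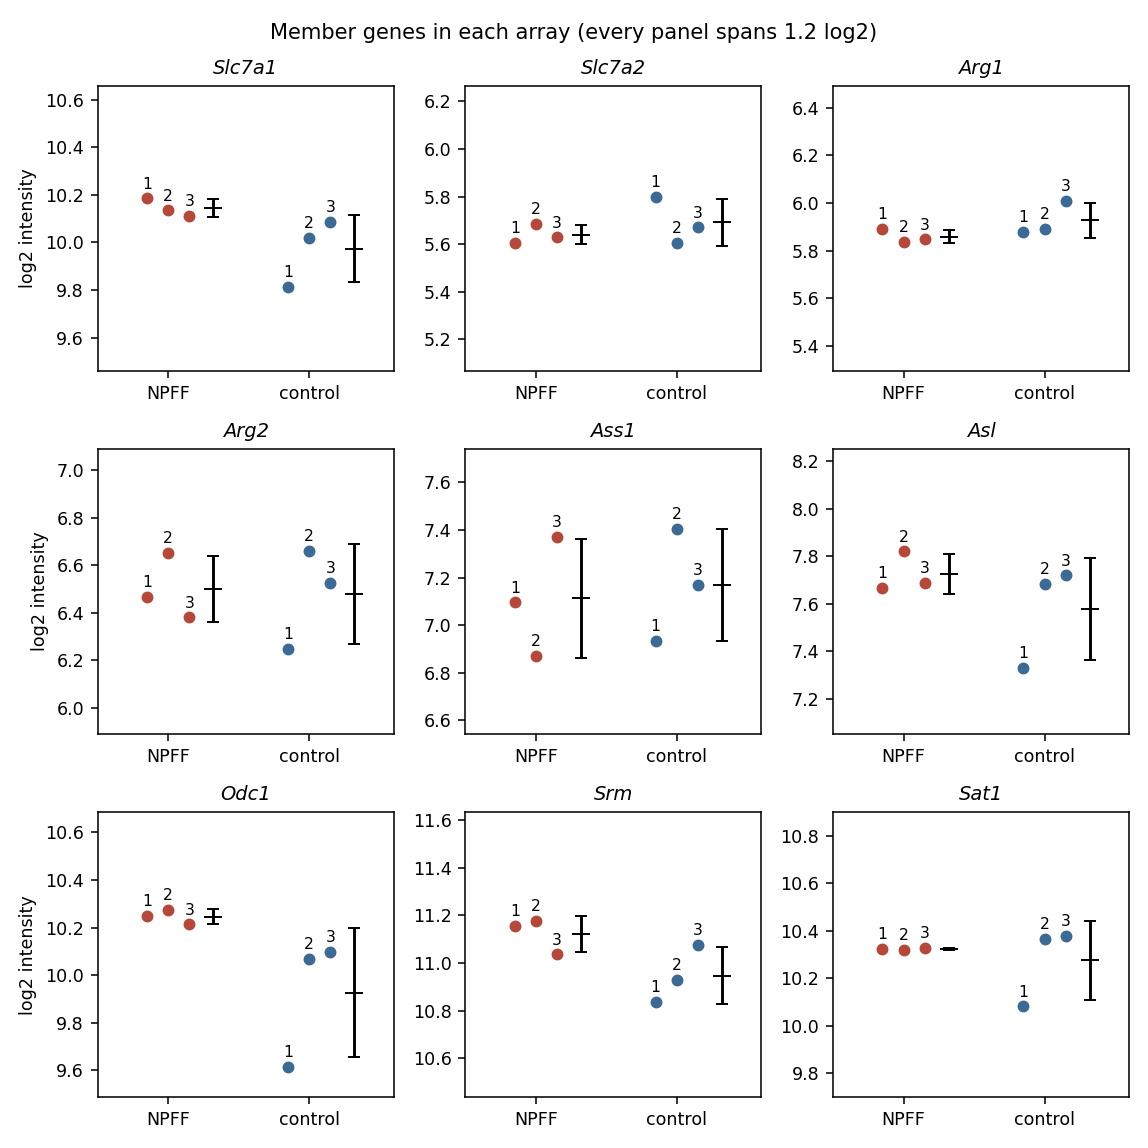
Log2 intensity (vertical axis) of the 9 measured genes in the 3 NPFF arrays (left in each panel) and the 3 control arrays (right), with replicate numbers, and the mean ± SD of each group (n = 3) as a black bar; every panel spans the same log2 range at its own level. Groups do not overlap for Slc7a1 and Odc1, and control 1 is the lowest array for 6 genes.

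The arrays themselves differed in how far they stood from one another. Control 1 was the lowest of the 6 arrays for 48.9% of all genes, against 9.40% to 11.1% for each other array, and deviated from the mean of the 6 arrays by an SD of 0.31 over genes, against 0.09 to 0.17 in the others. Among the 9 arginine and polyamine genes it was the lowest array for 6: Odc1, Asl, Slc7a1, Arg2, Sat1 and Srm. The SD was larger in control than in NPFF for 8 of the 9 genes, as it was for 80.4% of all genes. Differences below are therefore given without control 1 too, and where they are given against control 3 alone, that control arm is 1 array. The macrophage markers Adgre1, Csf1r, Itgam, Cd68, Cd14, Fcgr1, Lyz2, Spi1 and Mertk had a median brightness at the 95.2nd percentile of all genes, while median percentiles were 22.1 for 4 lymphocyte markers, 27.2 for 4 neutrophil markers, 38.6 for 4 epithelial markers and 52.4 for 5 fibroblast markers. Mean levels of the macrophage markers ranged from 10.63 to 10.72 log2 in NPFF and from 10.41 to 10.72 log2 in control. The fibroblast marker means ranged from 6.37 to 6.48 log2 in NPFF and from 6.29 to 6.41 log2 in control, and those of the neutrophil markers from 5.71 to 5.74 log2 in NPFF and from 5.75 to 5.81 log2 in control, the 1 list whose array means did not overlap. Of the 4 neutrophil markers, 0 had groups that did not overlap when read singly. Of the macrophage markers, Csf1r was higher with no overlap, by 0.46 (SE 0.20), as 3.67% of all genes were. Csf1r read 10.34 log2 in control 1, against 10.98 and 11.11 in controls 2 and 3. The fibroblast marker Pdgfrb was lower with no overlap, at -0.07 (SE 0.06), as 4.92% of all genes were. The part of these shifts in the results was not tested. All 6 samples are of 1 line, so the other lists describe transcript levels and not shares of cell types. Bulk RNA does not tell fewer cells expressing a gene from less RNA per cell.

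**Figure D2:**
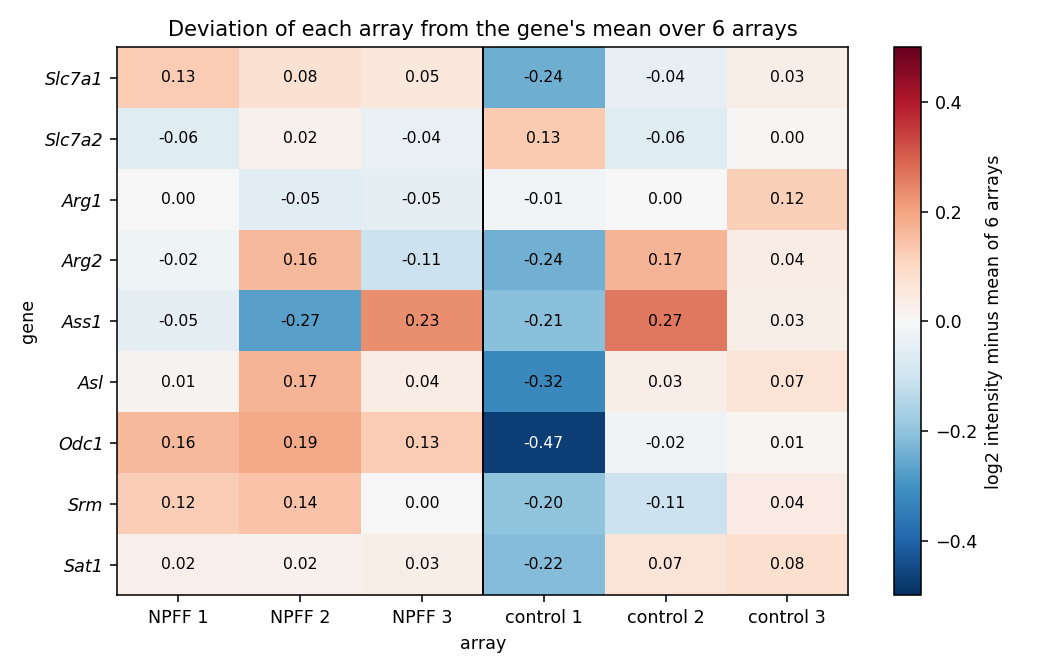
Deviation of each array (horizontal axis) from the gene's mean over the 6 arrays, in log2, for the 9 genes (vertical axis), with NPFF arrays on the left and red for above and blue for below the mean. Control 1 is the lowest array for 6 of the 9 genes, down to -0.47 for Odc1, and the highest for Slc7a2, at 0.13. NPFF 2 is the lowest for Ass1, at -0.27. Controls 2 and 3 lie near the mean for most genes.

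Arginine enters macrophages mainly through cationic amino acid transporters of the SLC7 family. Slc7a1, which encodes the broadly expressed transporter CAT1 (feature 17455401), read 10.19, 10.13 and 10.11 log2 in NPFF 1 to 3, against 9.81, 10.02 and 10.09 log2 in control 1 to 3. The 3 NPFF arrays lay close together and just above the controls, the nearest pair being 0.02 apart. Means were 10.14 ± 0.04 in NPFF and 9.97 ± 0.14 in control (SD, n = 3 each), a difference of 0.17 (SE 0.09, 95% interval -0.04 to 0.38), with an unadjusted p = 0.0918 by limma. The exact two-sided permutation test gave p = 0.1, the smallest it can give with 3 arrays against 3. As deposited, without further normalization, NPFF 3 read 10.10 and control 3 read 10.12, so the groups overlapped. Without control 1 the difference was 0.09 (SE 0.06), and against control 3 alone it was 0.06.

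Slc7a2 encodes CAT2, the transporter known for its induction together with nitric oxide synthase and arginase in activated macrophages. It was dim, at the 24.0th percentile of brightness (feature 17500716). It read 5.61, 5.69 and 5.63 log2 in NPFF 1 to 3, against 5.80, 5.61 and 5.67 log2 in control 1 to 3. The groups overlapped, with control 1 the highest array, the opposite of its place for Slc7a1. The difference was -0.05 (SE 0.07, 95% interval -0.23 to 0.12), and without control 1 it was 0.00.

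The arginases differ in place, Arg1 in the cytosol and Arg2 in mitochondria. Arg1 (feature 17239845) read 5.89, 5.84 and 5.85 log2 in NPFF 1 to 3, against 5.88, 5.89 and 6.01 log2 in control 1 to 3. All 6 values lay between 5.84 and 6.01, at the 32.0th percentile of brightness, and the groups overlapped. The difference was -0.07 (SE 0.07, 95% interval -0.22 to 0.09), that is 0.954-fold. Without control 1 it was -0.09, against control 3 alone, the highest array, -0.15, and without control 3 -0.03. The file carries no detection call, so it is not known whether values at this brightness stand above background.

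Arg2 (feature 17276776) read 6.47, 6.65 and 6.38 log2 in NPFF 1 to 3, against 6.25, 6.66 and 6.53 log2 in control 1 to 3. Replicate values in each group spanned more than the difference of 0.02 (SE 0.13, 95% interval -0.28 to 0.32). Without control 1 the difference turned to -0.09, and against control 3 alone it was -0.03.

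Ass1 and Asl encode argininosuccinate synthase and lyase, which remake arginine from the citrulline that nitric oxide synthesis leaves. Ass1 (feature 17369487) read 7.10, 6.87 and 7.37 log2 in NPFF 1 to 3, against 6.93, 7.41 and 7.17 log2 in control 1 to 3. It was the most scattered of the 9 genes in the NPFF group, with an SD of 0.25, and the groups overlapped. The difference was -0.06 (SE 0.17, 95% interval -0.46 to 0.34). Without NPFF 2 it turned to 0.06, without control 2 it was also 0.06, and without control 1 it was -0.18.

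Asl (feature 17453179) read 7.67, 7.82 and 7.69 log2 in NPFF 1 to 3, against 7.33, 7.68 and 7.72 log2 in control 1 to 3. Control 1 was low, and the other 5 arrays lay between 7.67 and 7.82. The difference was 0.15 (SE 0.12, 95% interval -0.14 to 0.43). Without control 1 it was 0.02, and against control 3 alone 0.00.

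Odc1 encodes ornithine decarboxylase, the first and rate-limiting enzyme of polyamine synthesis. It read 10.25, 10.28 and 10.21 log2 in NPFF 1 to 3, against 9.61, 10.07 and 10.10 log2 in control 1 to 3 (feature 17274294). Each NPFF array lay above each control array, by 0.12 in the nearest pair and 0.66 in the farthest. Means were 10.25 ± 0.03 in NPFF and 9.93 ± 0.27 in control (SD, n = 3 each). The difference was 0.32 (SE 0.13, 95% interval -0.0048 to 0.64), with an unadjusted p = 0.0526 by limma and p = 0.1 by the exact two-sided permutation test.

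The size of the Odc1 difference depended on control 1. Without that array it was 0.16 (SE 0.06), and against control 3 alone it was 0.15. The single array of that control arm gives no spread of its own, so no test is read from it. Without control 1 the unadjusted p was 0.0212 by limma, where 10.8% of all genes had an unadjusted p under 0.05, and the adjusted p was 0.401. As deposited, the groups did not overlap either, where 2.57% of all genes were higher with no overlap. The difference was then 0.30 (SE 0.17), with an unadjusted p = 0.125 by limma.

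Srm encodes spermidine synthase, which adds an aminopropyl group to putrescine. It read 11.16, 11.18 and 11.04 log2 in NPFF 1 to 3, against 10.84, 10.93 and 11.08 log2 in control 1 to 3 (feature 17421694). NPFF 1 and 2 lay above the controls, and NPFF 3 lay below control 3. The difference was 0.18 (SE 0.08, 95% interval -0.03 to 0.38), with an unadjusted p = 0.0792 by limma and p = 0.2 by the exact permutation test. It was 0.12 without control 1, 0.24 without control 3 and 0.05 against control 3 alone.

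Sat1 encodes the acetyltransferase that starts polyamine breakdown. It read 10.32, 10.32 and 10.33 log2 in NPFF 1 to 3, against 10.08, 10.36 and 10.38 log2 in control 1 to 3 (feature 17545595). The NPFF arrays were nearly alike, with an SD of 0.004, and lay between control 1 and the other controls. The difference was 0.05 (SE 0.09, 95% interval -0.18 to 0.27). Without control 1 it turned to -0.05, and against control 3 alone it was -0.06.

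**Figure D3:**
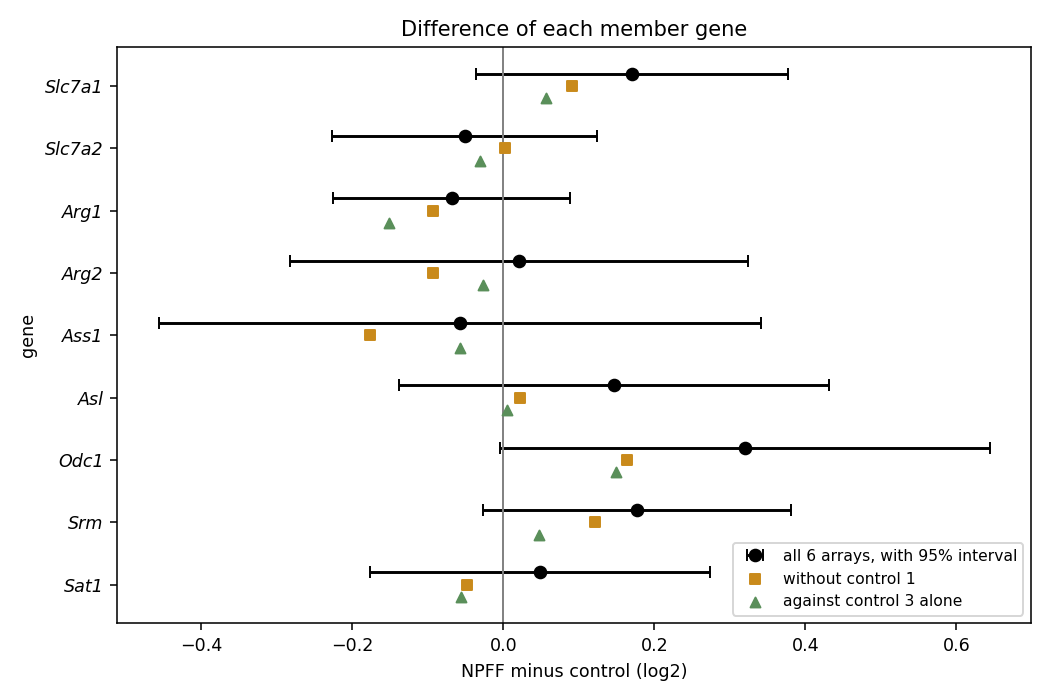
NPFF minus control in log2 (horizontal axis) for the 9 genes (vertical axis), with all 6 arrays and the 95% interval of the limma fit in black, without control 1 as squares and against control 3 alone as triangles. Every interval includes 0, and Odc1, Srm, Slc7a1 and Asl lie above 0 in all 3 comparisons, nearer to 0 in those without control 1.

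Without control 1, 5 of 9 were higher in NPFF, against 39.1% of all genes, and against control 3 alone 4 of 9 were, against 48.0% of all genes. Slc7a1, Odc1, Srm and Asl lay above 0 with all arrays, without control 1 and against control 3 alone, and Arg1 and Ass1 lay below 0 in these 3 comparisons. The comparisons share the NPFF arrays and control 3, and over all genes 23.7% lay above 0 and 29.7% below 0 in all of them.

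Of 53 further genes of arginine and polyamine metabolism, 47 were measured with a feature of their own, and 0 of these passed limma over all genes, with 1 at an unadjusted p under 0.05, against 2.51% of all genes. Differences were positive for 29 and negative for 18, where 51.7% of all genes lay above 0. Their median was 0.03 against 0.00 over all genes. Control 1 was the lowest array for 31 of the 47, and without control 1, 14 of the 47 were higher in NPFF, against 39.1% of all genes.

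Antizymes and other genes around polyamine synthesis were higher in 8 of 9 cases and lower in 1, with 0 passing. The share of all genes that were higher was 51.7%, and control 1 was the lowest array for 7 of this group. Oaz2, an antizyme that restrains ornithine decarboxylase, read 7.53, 7.65 and 7.62 log2 in NPFF 1 to 3, against 7.00, 7.48 and 7.30 log2 in control 1 to 3. All NPFF arrays lay above all controls, and Oaz2 was the 1 gene of the 47 that did so, where 3.67% of all genes did. Its difference was 0.34 (SE 0.13), with an unadjusted p = 0.0319 by limma. It was 0.21 without control 1 and 0.31 against control 3 alone. The dimmer of its 2 features differed by 0.32 (SE 0.23) and had overlapping groups. Oaz1, the best-known antizyme, differed by 0.06 (SE 0.20), and by -0.16 without control 1. The antizyme inhibitor Azin1 differed by 0.03 (SE 0.08), and by -0.02 without control 1. Oaz3 differed by 0.11 (SE 0.09), and by 0.02 without control 1. It was dim, at the 17.3rd percentile of brightness, so the limit given for Arg1 holds for it too.

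Arginine and ornithine transporters outside the 9 genes were higher in 2 of 8 cases and lower in 6, with 0 passing. Slc7a6, a partner of the heavy chain Slc3a2 in exchange of cationic for neutral amino acids, differed by 0.19 (SE 0.11), and by 0.08 without control 1. Slc38a9, the lysosomal arginine sensor that signals to mTORC1, read 8.94, 8.92 and 9.04 log2 in NPFF 1 to 3, against 9.27, 9.06 and 9.06 log2 in control 1 to 3. Every NPFF array lay below every control, as in 4.92% of all genes, and Slc38a9 was the 1 gene of the 47 placed so. The difference was -0.16 (SE 0.08), and -0.09 without control 1.

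Genes of the urea cycle and of other routes around arginine, with the antizyme inhibitor Azin2 counted among them, were higher in 6 of 14 cases and lower in 8, with 0 passing. Nos2, the inducible nitric oxide synthase, read 6.74, 6.80 and 6.88 log2 in NPFF 1 to 3, against 6.71, 6.99 and 6.81 log2 in control 1 to 3. The groups overlapped, with a difference of -0.03 (SE 0.09), and of -0.09 without control 1. Prmt1, an arginine methyltransferase, differed by 0.36 (SE 0.24), and by 0.09 without control 1, which read 7.20 against 7.91 to 8.24 in the other 5 arrays. Gamt, which completes creatine synthesis, differed by -0.20 (SE 0.12), and by -0.11 without control 1.

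The 4 measured genes between ornithine, proline and glutamate all had differences above 0, as 51.7% of all genes had, with 0 passing. In 3 of the 4, control 1 was the lowest array. Aldh18a1, which makes the precursor of ornithine and proline, differed by 0.30 (SE 0.25), and by -0.01 without control 1, which stood at 9.69 log2 against 10.48 to 10.67 in the other 5 arrays. Pycr3, the cytosolic pyrroline carboxylate reductase (listed under its older symbol Pycrl), differed by 0.05 (SE 0.11), and by -0.02 without control 1.

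Polyamine breakdown and transport genes were higher in 6 of 8 cases and lower in 2, with 0 passing. For 6 of the 8, control 1 was the lowest array, and 51.7% of all genes were higher. Smox, spermine oxidase, differed by 0.15 (SE 0.16), and by -0.04 without control 1. Atp13a2, the lysosomal polyamine exporter, differed by 0.22 (SE 0.17), and by 0.02 without control 1. Atp13a4, a related ATPase, differed by -0.07 (SE 0.07), and by -0.11 without control 1. It was dim, at the 29.9th percentile of brightness, so the limit given for Arg1 holds for it too.

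Of the 4 hypusine pathway genes, 3 were higher and 1 lower, with 0 passing, where 51.7% of all genes were higher. Eif5a, the translation factor that carries hypusine, read 9.86, 9.83 and 9.74 log2 in NPFF 1 to 3, against 8.73, 9.68 and 9.80 log2 in control 1 to 3. Its difference was 0.40 (SE 0.27) with all arrays and 0.07 without control 1, the lowest array. Eif5a2 differed by -0.07 (SE 0.07), and by -0.02 without control 1.

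**Figure D4:**
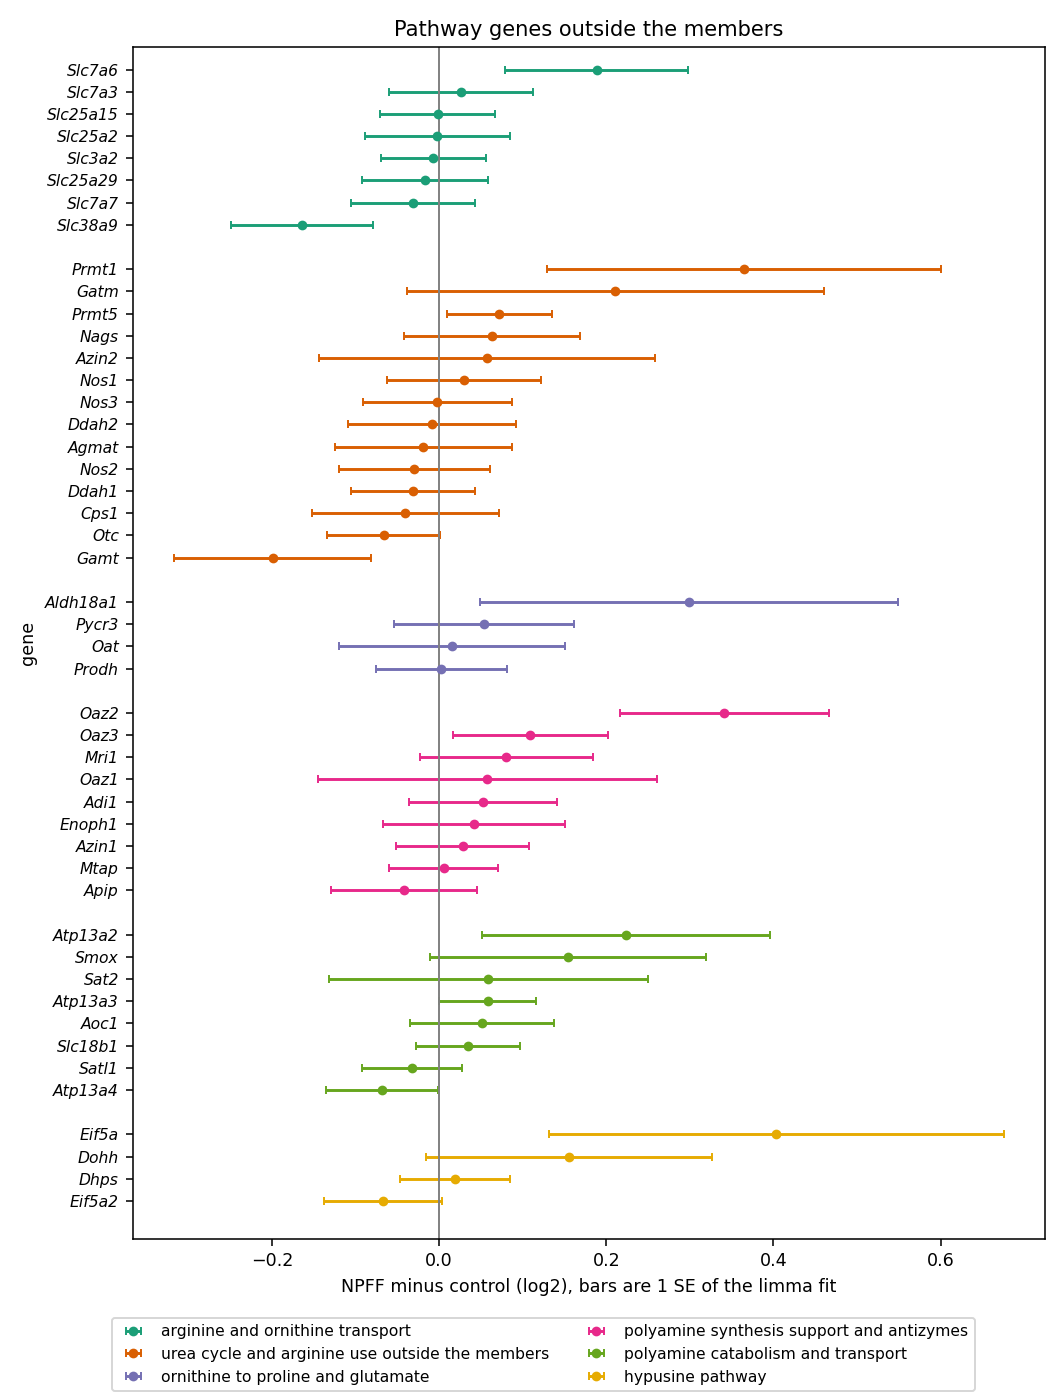
NPFF minus control in log2 (horizontal axis) for the 47 measured pathway genes outside the 9 (vertical axis), in groups by colour, with bars of 1 SE of the limma fit. Oaz2 stands at 0.34 and Slc38a9 at -0.16, the 2 genes whose groups did not overlap.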

How the data were processed

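Transcript levels in 3 NPFF and 3 control samples of J774A.1 cells were measured on Affymetrix whole-transcript arrays from 500 ng of biotin-labelled total RNA, per the labels' protocols. The deposited values were taken to be log2 intensities per feature, since they run between 4.59 and 14.0. How the authors corrected background, summarized probes and normalized is not given in the sources used here. The table held 33794 features, of which a platform annotation paired 23521 with exactly 1 symbol and 1814 with several, and 8459 are unnamed here. After sorting, single arrays differed from the 6-array mean by as much as 0.17 log2, so quantile normalization over all features was applied. The brightest feature per gene was kept, by its mean over the 6 arrays, which gave 22180 genes.

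The groups were compared in limma (3.58.1, under R 4.3.3), using lmFit and eBayes with group as the only term, 4 residual degrees of freedom and 2.49 prior ones. P-values were two-sided and adjusted by Benjamini-Hochberg over all genes, with a threshold of 0.05. The fit was tested on simulated data in which both groups had the spread of the NPFF arrays. That test does not cover the wider spread of the control arrays. The number of arrays limits the precision. The alternatives tried were other normalizations, the mean over features, a filter on dim genes, other priors, array weights, the replicate number as a block, arrays left out, and all features tested.

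The genes described, the pathway lists and the tests were chosen with earlier results of these data known. The 9 measured genes are all named; of each pathway group up to 2 genes of smallest p were named, together with Nos2, Oaz1, Azin1 and Smox. Listed genes without a feature of their own were left out and are not reported here.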

Additional observations from a re-analysis of the deposited data

How the results depend on the processing

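With array weights, which weighted control 3 by 22.6 and control 1 by 0.0773, 1127 of 22180 genes passed limma's adjusted threshold (5.08%), among them the pathway genes Oaz2 at 0.29 and Atp13a4 at -0.16 but 0 of the 9 genes; 5757 genes and 2 of the 9 were at an unadjusted p under 0.05, and 3 of the 9 were higher in NPFF. In each of the other settings with more than 1 control array, 0 genes passed. As deposited or with arrays centred on their medians, 1 of the 9, Odc1, was higher with no overlap (2.57% and 1.65% of all genes). The unadjusted p of Odc1 by limma was larger in these settings, at 0.125 as deposited and 0.188 with centred arrays. Those of Slc7a1 were 0.204 and 0.312 by limma, and those of Srm 0.170 and 0.265. With cyclic loess and with a trended prior, 1 of the 9, Odc1, was at an unadjusted p under 0.05, as were 765 and 479 of all 22180 genes. Without control 3, 2 of the 9, Odc1 and Srm, were at that level, as were 937 of all 22180 genes. The count was 1 of 9 without control 1, against 2397 of all genes, and 1 of 9 without control 2, against 658. Genes at that level numbered 952 over all features, 1130 against control 3 alone (a single array, assumed to vary like the NPFF arrays), and 235 (without NPFF 1) to 2397 (without control 1) with single arrays left out, where the count among the 9 was 0 to 2 and pathway genes higher in NPFF numbered 14 (without control 1) to 35 (without control 2).

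Signs turned with array weights for Arg2 (-0.031), Asl (-4.5e-04), Sat1 (-0.055), Pycr3 (-0.0014), Oaz1 (-0.28), Azin1 (-0.076), Smox (-0.076) and Atp13a2 (-0.0041), and against control 3 alone for Arg2 (-0.027), Sat1 (-0.056), Oaz1 (-0.31), Azin1 (-0.078), Smox (-0.075) and Atp13a2 (-0.0095). With single arrays left out, differences that changed sign ranged from -0.093 to 0.11 for Arg2, -0.19 to 0.064 for Ass1, -0.094 to 0.0023 for Slc7a2, -0.048 to 0.10 for Sat1, -0.093 to 0.048 for Nos2, -0.0063 to 0.46 for Aldh18a1, -0.039 to 0.11 for Pycr3, -0.16 to 0.24 for Oaz1, -0.016 to 0.081 for Azin1 and -0.039 to 0.27 for Smox. Odc1 ranged from 0.16 to 0.40, Slc7a1 from 0.09 to 0.23 and Srm from 0.12 to 0.24. The causes were not tested.

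The labels give no factor other than group, so the replicate numbers were not taken to pair the samples. Same-numbered samples had deviations from their group means that correlated across genes at 0.23, 0.45 and -0.33 for replicates 1, 2 and 3. For samples of different numbers the correlations ran from -0.50 to 0.41. Deviations within a group depend on each other, so these values cannot decide whether samples were paired. With the replicate number as a block, 0 genes passed, 396 were at an unadjusted p under 0.05, and Odc1 differed by 0.32 (SE 0.12, unadjusted p = 0.0521 by limma).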
